A study of Mus musculus with 9 samples.

Results

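Creg2, Plcd1, Bhlhe41, Mrps28, Adgrg3, Gm10250 and 9530036M11Rik are 7 of the 55247 genes for which reads were counted in dorsal root ganglia (DRG) of mouse embryos. They were selected on their measured values, because their counts in the mutant libraries had moved one way relative to each control genotype. Of the 7, 4 were lower in the mutant (Creg2, Adgrg3, Gm10250 and 9530036M11Rik) and 3 were higher (Plcd1, Bhlhe41 and Mrps28). The differences of these genes are therefore a description. Where it is said which of them met a criterion with a p threshold, this describes the selection and is not a test, and tests are kept for genes that were not selected.

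Each genotype was represented by 3 libraries from E18.5 embryos. WT embryos are given in the labels as wild type, with no further detail on their alleles. Isl1Cre/+ embryos carried Cre in 1 copy of Isl1, a gene of postmitotic sensory neurons, and so had a single intact copy of Isl1. Mutant embryos, Isl1Cre/+::Meis2LoxP/LoxP, had this same Cre allele together with both Meis2 copies floxed around exon 8, which encodes the start of the DNA-binding homeodomain. Meis2 is a transcription factor of touch-sensing neurons. Mice of this mutant genotype respond less to light touch, and the study turned to ganglion RNA for a molecular basis. The deletion is conditional, since it needs Cre made from Isl1, and the paper used it to target postmitotic neurons. The Meis2 line was on a C57BL/6 background, and the sources used here give neither litter, sex nor the number of embryos per library, so the p-values below measure only the spread between these libraries.

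The proteins among these genes act in unrelated processes. Creg2 encodes a secreted glycoprotein found mainly in brain, Adgrg3 an adhesion G protein-coupled receptor known from granulocytes, and Plcd1 a phospholipase C that splits a membrane phosphoinositide into second messengers and is best known from hair follicles. Bhlhe41 (DEC2) is a basic helix-loop-helix repressor of the circadian clock, and Mrps28 is a protein of the small subunit of the mitochondrial ribosome. Gm10250 and 9530036M11Rik encode no known protein: the first is a processed pseudogene, a copy of an mRNA inserted into the genome, and the second an antisense RNA.

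None of these genes is in the lists of cell type markers used here, and whole ganglia hold neurons, satellite glia, Schwann cells, vessels and blood. Whole-ganglion counts do not show which cells made each RNA, so the genes are not described here as neuronal or non-neuronal, and fewer cells of a type cannot be told apart from less RNA per cell. All 7 genes were among the 13200 genes tested, which reached 100 counts in some library. Creg2, Plcd1, Bhlhe41 and Mrps28 reached 100 counts in all 9 libraries. Adgrg3 did so in 6 libraries, Gm10250 in 4 and 9530036M11Rik in 1, all of them control libraries, so these genes passed the filter only through the groups in which they were high.

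The libraries held 23854607 to 29103444 counts. WT library 1 and mutant library 2 stood apart from the rest, with median rank correlations with the other 8 libraries of 0.981 and 0.979 against 0.991 to 0.995. Meis2 RNA was at 103 ± 7.24 cpm (counts per 1000000, scaled by TMM normalisation) in WT, 95.7 ± 6.31 in Isl1Cre/+ and 40.9 ± 0.256 in mutant libraries (SD, n = 3), and all mutant libraries lay under all control libraries. These reads cover the whole gene and not the floxed exon alone. Isl1 was lower in Isl1Cre/+ than in WT by a log2 fold change of -0.48 (SE 0.126, unadjusted p = 0.00593, adjusted p = 0.9999, edgeR) and differed between mutant and Isl1Cre/+ by 0.013 (SE 0.113).

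Creg2 (ENSMUSG00000050967.5) lies on the minus strand at chr1:39618406-39651474 of GRCm38, the mm10 assembly. It had 1223, 1040 and 1176 counts in the WT libraries, 1137, 1150 and 1127 in the Isl1Cre/+ libraries and 982, 802 and 754 in the mutant libraries. Every mutant library thus had fewer counts than every control library. Scaled by library size, the level was 41.2 ± 4.63 cpm in WT, 39.9 ± 1.2 in Isl1Cre/+ and 32.8 ± 3.59 in the mutant (SD, n = 3). On that scale mutant library 1, at 36.9 cpm, was level with WT library 2, at 36.8 cpm, and the other mutant libraries were under all controls. The mutant mean was 0.795 times WT (log2 fold change -0.33, SE 0.120) and 0.823 times Isl1Cre/+ (-0.28, SE 0.0869). Of its exonic bases, 15.1% overlap the opposite-strand gene D930019O06Rik, which had 7 to 18 counts per library.

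Adgrg3 (ENSMUSG00000060470.7), on the plus strand at chr8:95017692-95045250, was the other protein-coding gene with lower counts in the mutant. WT libraries held 108, 101 and 113 Adgrg3 counts, Isl1Cre/+ libraries 119, 100 and 106, and mutant libraries 84, 77 and 77. All mutant libraries were under all 6 controls. Its level was 3.86 ± 0.253 cpm in WT, 3.79 ± 0.242 in Isl1Cre/+ and 3.08 ± 0.134 in the mutant, and so differed by less than 1 cpm between the groups. The mutant stood at 0.799 times WT (log2 fold change -0.32, SE 0.173) and 0.813 times Isl1Cre/+ (-0.30, SE 0.157). At a mean of 98.3 counts, counting error alone amounts to 10.1% of a library's value, and the observed coefficients of variation within genotypes were 4.36% to 6.56%.

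Plcd1 (ENSMUSG00000010660.3; minus strand, chr9:119071527-119093502) was higher in the mutant. Counts of Plcd1 were 421, 486 and 429 in mutant libraries, compared with 410, 331 and 407 in WT libraries and 418, 426 and 371 in Isl1Cre/+ libraries. Before scaling, mutant library 1 lay within the control range. After scaling, the lowest mutant library (15.8 cpm) was just above the highest control (15.4 cpm), so the groups parted only by scaling to library size. The means were 13.8 ± 1.89 cpm in WT, 14.2 ± 1.07 in Isl1Cre/+ and 17.3 ± 1.35 in the mutant. This made the mutant 1.26 times WT (log2 fold change 0.33, SE 0.135) and 1.22 times Isl1Cre/+ (0.29, SE 0.0970).

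Bhlhe41 (ENSMUSG00000030256.11; minus strand, chr6:145858243-145865558) was represented by 442, 472 and 348 counts in the mutant libraries, by 300, 405 and 376 in the WT libraries and by 377, 383 and 296 in the Isl1Cre/+ libraries. Mutant libraries 1 and 2 exceeded all controls, while mutant library 3, at 14.3 cpm, was level with WT library 2. The level was 12.9 ± 1.53 cpm in WT, 12.3 ± 1.68 in Isl1Cre/+ and 16.3 ± 1.85 in the mutant. The ratio of the mutant was 1.26 to WT (log2 fold change 0.34, SE 0.139) and 1.32 to Isl1Cre/+ (0.40, SE 0.132). An opposite-strand transcript without a known function, Gm43909, overlaps 19.0% of the exonic bases and had 3 to 10 counts per library.

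Mrps28 (ENSMUSG00000040269.5; minus strand, chr3:8802146-8923918) showed the narrowest spread of the higher genes. Its counts ran from 217 to 234 in WT (217, 220 and 234), from 206 to 228 in Isl1Cre/+ (206, 208 and 228) and from 238 to 257 in the mutant (238, 257 and 244). All mutant libraries were above all controls, already before scaling. The means of 8.03 ± 0.210 cpm in WT, 7.50 ± 0.518 in Isl1Cre/+ and 9.58 ± 0.559 in the mutant gave ratios of 1.19 to WT (log2 fold change 0.25, SE 0.114) and 1.28 to Isl1Cre/+ (0.35, SE 0.103). Its introns hold the pseudogenes Gm15467 and Gm15466, which share no exonic base with it.

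**Figure D1:**
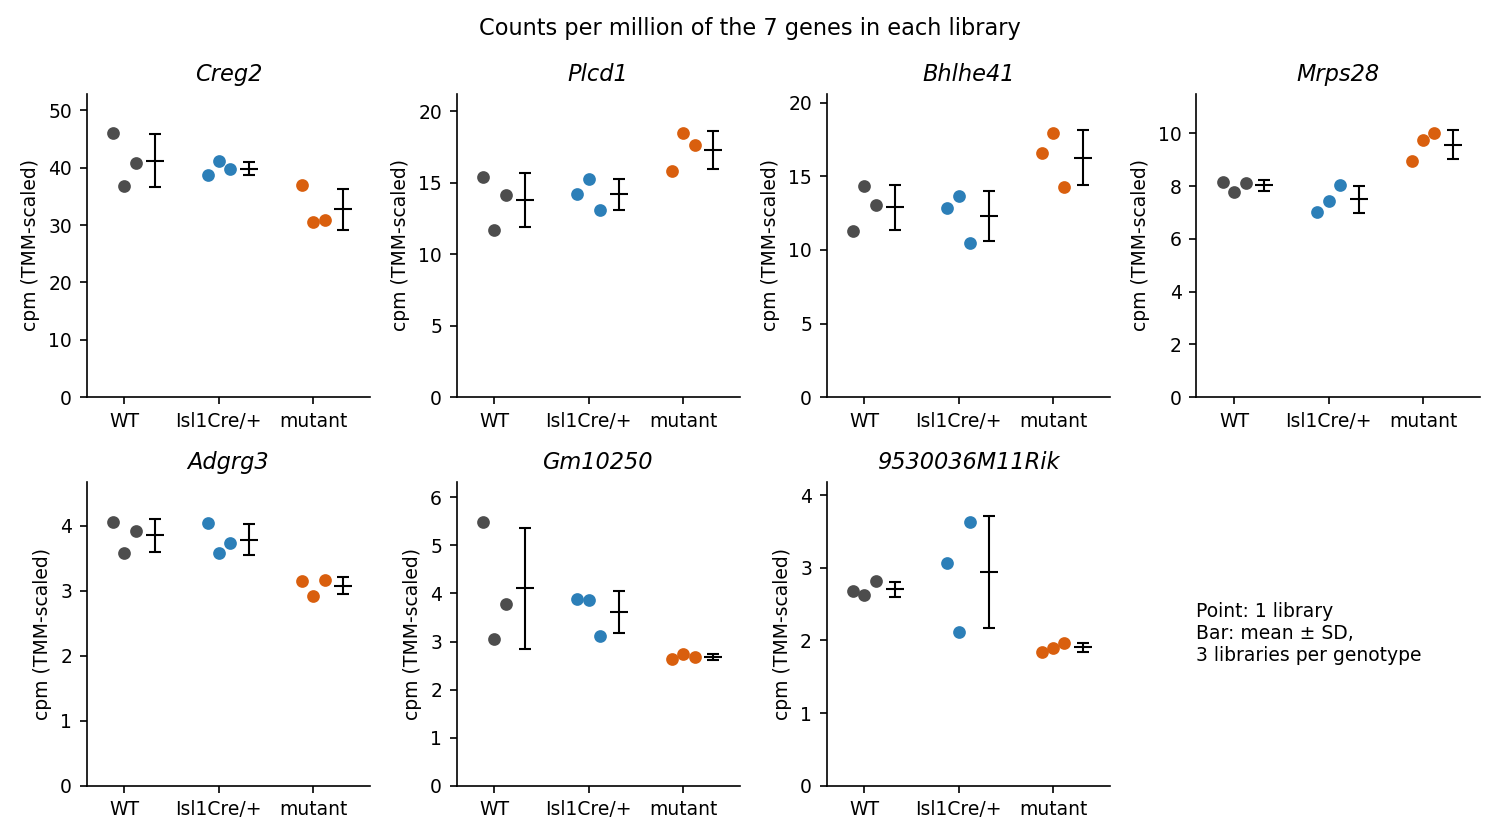
Level in cpm (TMM-scaled, linear axes from 0) of each gene in the 9 libraries, with points for libraries and bars for the mean ± SD of 3 libraries per genotype. The mutant points lie apart from all control points for Plcd1, Mrps28, Adgrg3, Gm10250 and 9530036M11Rik, and meet the WT range for Creg2 and Bhlhe41.

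The non-coding genes had the lowest counts and the largest ratios. Gm10250 (ENSMUSG00000068706.3) is a single exon of 482 bases on the minus strand at chr15:5120654-5121135. WT libraries gave 146, 86 and 109 counts of Gm10250, Isl1Cre/+ libraries 114, 108 and 88, and mutant libraries 70, 72 and 65. The mutant libraries were within a few counts of each other and under all controls, and WT library 1 had the most. On the cpm scale this was 4.11 ± 1.26 in WT, 3.62 ± 0.442 in Isl1Cre/+ and 2.68 ± 0.0533 in the mutant. The mutant coefficient of variation, 1.99%, was under the counting error of 10.2% at the mean count, so this closeness is not read as reproducibility. The mutant was at 0.653 times WT (log2 fold change -0.62, SE 0.253) and at 0.741 times Isl1Cre/+ (-0.43, SE 0.176). The first value depended on single libraries, being -0.35 when WT library 1 was left out and -0.79 when WT library 2 was.

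Gm10250 is a near-identical copy of the mRNA of Atp5h, subunit d of the mitochondrial ATP synthase, so its reads have to be told from those of a far more abundant gene. In a gapped alignment 480 of 485 columns (99.0%) were identical. The differences were the substitutions C69T and G309A, with the base of Atp5h first and positions counted from the A of the Atp5h start codon, and 3 bases of Atp5h (positions 439 to 441) that Gm10250 lacks. Both sequences are shown from position 292, where most differences lie, in the sense of the mRNA, with the bases that differ in capitals. The Gm10250 stretch corresponds to chr15:5120698-5120844 (minus strand, GRCm38), and the Atp5h stretch is coding sequence, both from GENCODE transcripts.
Gm10250: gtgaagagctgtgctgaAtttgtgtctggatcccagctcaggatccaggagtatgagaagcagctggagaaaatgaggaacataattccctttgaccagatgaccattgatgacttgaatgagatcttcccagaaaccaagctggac
Atp5h: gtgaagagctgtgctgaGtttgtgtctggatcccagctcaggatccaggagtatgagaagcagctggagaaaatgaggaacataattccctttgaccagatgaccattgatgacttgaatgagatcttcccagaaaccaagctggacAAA

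Of the 399 windows of 84 bases, the read length, along Gm10250, 204 (51.1%) were identical to Atp5h, so reads from these windows cannot be placed uniquely by sequence. Atp5h itself had 3202 to 4202 counts per library and a log2 fold change of 0.019 (SE 0.104) between mutant and WT. Of the summed counts of both genes, Gm10250 made up 1.70%, 1.77% and 1.99% in mutant libraries, compared with 3.36%, 2.18% and 2.74% in WT libraries and 2.74%, 2.77% and 2.31% in Isl1Cre/+ libraries. Its share was thus lower in every mutant library than in every control library, with means of 2.76% ± 0.588, 2.61% ± 0.257 and 1.82% ± 0.149 (SD, n = 3). The 95% exact (Clopper-Pearson) intervals, which cover counting error only, overlapped between mutant and control libraries: 1.54% to 2.53% in mutant library 3 and 1.75% to 2.69% in WT library 2. The authors counted uniquely mapped reads only, and how reads were split between copies this similar was not tested, so the level of Gm10250 is uncertain. Other copies of the sequence in the transcript set, Gm4953, Gm5051 and Gm33121, had 0 to 5 counts.

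**Figure D2:**
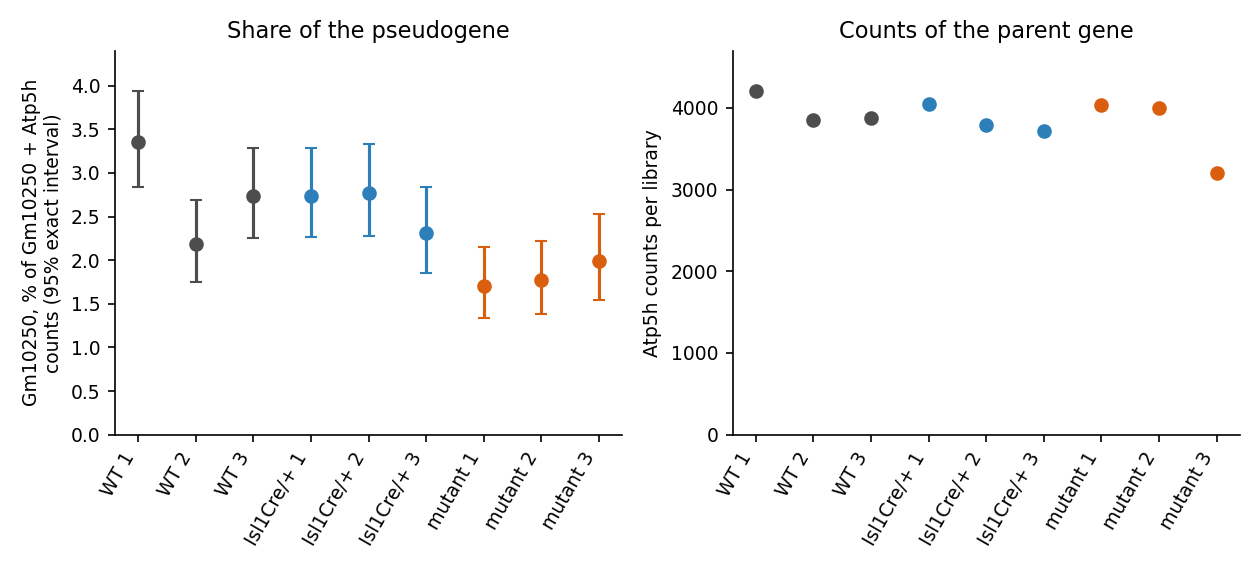
Left, counts of Gm10250 as a percentage of the summed counts of Gm10250 and Atp5h in each library, with 95% exact intervals. Right, counts of Atp5h in the same libraries. The 3 mutant libraries have the lowest shares (1.70% to 1.99%, against 2.18% to 3.36% in controls), and Atp5h ranges from 3202 to 4202 counts.

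9530036M11Rik (ENSMUSG00000087670.1; minus strand, chr6:54146887-54150937) lies within the span of Chn2, a Rac GTPase-activating protein gene on the opposite strand, and shares no exonic base with it. WT libraries contained 71, 74 and 81 of its counts, Isl1Cre/+ libraries 90, 59 and 103, and mutant libraries 49, 50 and 48. The mutant values were nearly the same in all libraries and under all controls, whereas the Isl1Cre/+ libraries varied widely. Levels were 2.7 ± 0.101 cpm in WT, 2.94 ± 0.771 in Isl1Cre/+ and 1.90 ± 0.0641 in the mutant. The mutant coefficient of variation, 3.37%, was under the counting error of 12% at the mean count. The closeness of the mutant values is therefore not read as reproducibility. The mutant stood at 0.705 times WT (log2 fold change -0.50, SE 0.200) and 0.649 times Isl1Cre/+ (-0.62, SE 0.250). The host gene Chn2 had 1206 to 1594 counts and log2 fold changes of -0.075 against WT and 0.027 against Isl1Cre/+. The strand setting of the read counting is not given in the sources used here, and without it reads of 9530036M11Rik cannot be told apart from unspliced Chn2 RNA.

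The study called genes that changed by at least 1.2 times with an unadjusted p under 0.05. The study applied this to limma voom fits, and here it was applied to the edgeR fit. By this criterion 5 of the 7 genes passed in the comparison of mutant and WT, where 0.318% of all genes tested did. Mrps28 missed both thresholds and Adgrg3 the p threshold in the edgeR fit. In the comparison of mutant and Isl1Cre/+, 6 of 7 passed (all but Adgrg3), against 1.67% of all genes. Both comparisons share the mutant libraries and both were used to select the genes, so these counts describe the selection. They depended on single libraries. Against WT the number of the 7 genes that passed was 1 without WT library 1 (Plcd1), 3 without WT library 2 and 0 without WT library 3, where 1%, 0.303% and 0.508% of all genes passed. It was 2 without mutant library 1, 0 without mutant library 2 and 1 without mutant library 3 (Bhlhe41), against 0.909%, 0.561% and 0.364% of all genes. Relative to Isl1Cre/+ it was 4, 4 and 3 without Isl1Cre/+ libraries 1, 2 and 3 (1.27%, 1.73% and 1.27% of all genes), and 4, 2 and 2 without mutant libraries 1, 2 and 3 (3.08%, 1.64% and 2.46%). In the comparison with WT the count of the 7 thus fell whichever library was left out. The share of all genes rose in each case except without WT library 2. Genes were lost at the p threshold, at the fold or at both, and Creg2 fell under the fold without mutant library 2 in both comparisons. With the DESeq2 Wald test 4 of the 7 passed in each comparison (0.28% and 1.79% of all genes), with limma voom 4 and 6 (0.303% and 1.17%), and with the replicate number as a block 1 and 4 (0.235% and 1.34%). With DESeq2 size factors in edgeR 6 passed in each, Mrps28 among them (0.311% and 1.71%). On the cpm scale, all mutant libraries lay on one side of all 6 control libraries for 5 of the 7 genes, against 0.848% of all genes. Creg2 and Bhlhe41 were the exceptions. With raw counts Creg2 joined and Plcd1 left the set, and 10.5% of all genes were apart, and the 3 mutant libraries had the lowest total counts of the 9. Just inside this boundary was Plcd1, and just outside it were Creg2 and Bhlhe41, by the values given above.

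**Figure D3:**
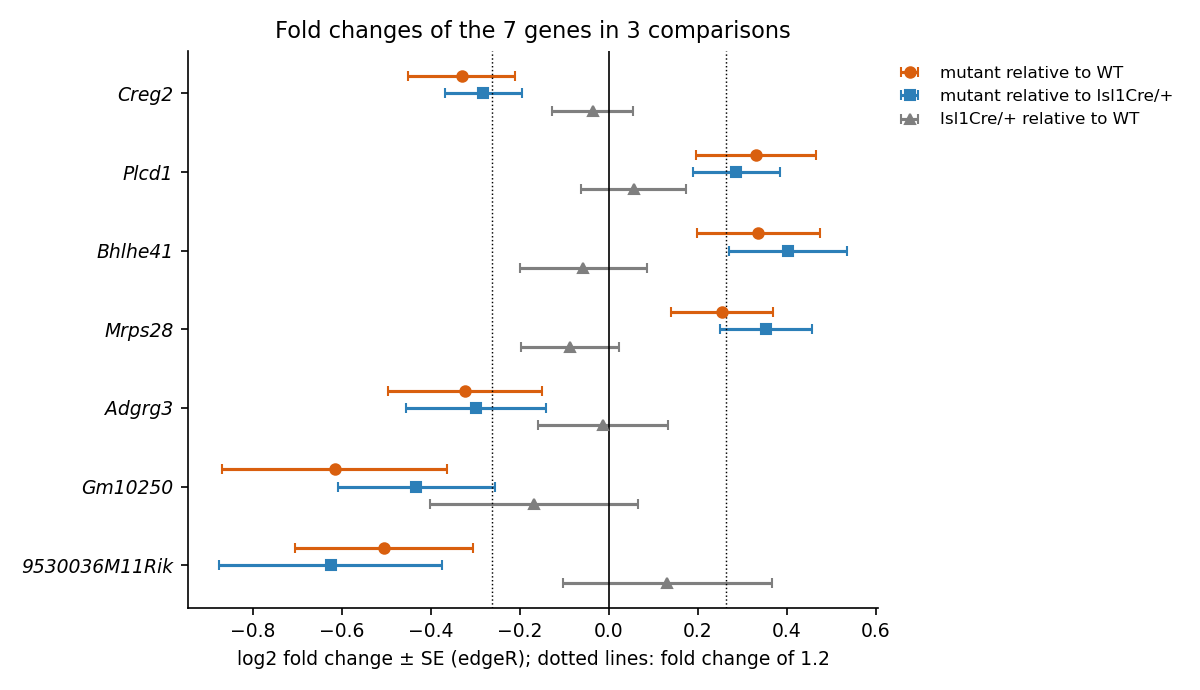
Log2 fold changes (edgeR) with their standard errors for each gene in the 3 comparisons, with dotted lines at a fold change of 1.2. The mutant values lie on the same side of 0 in both mutant comparisons for all 7 genes, and the values for Isl1Cre/+ relative to WT lie between -0.17 and 0.13.

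Isl1Cre/+ and WT were not set against each other directly by the selection, but a gene whose mutant values differ one way from both controls tends to have similar controls. The values of this comparison are therefore a description too. None of the 7 genes met the criterion between Isl1Cre/+ and WT, which 1.4% of all genes tested did, and nothing is read from this. The log2 fold changes were -0.036 for Creg2, 0.056 for Plcd1, -0.058 for Bhlhe41, -0.087 for Mrps28 and -0.013 for Adgrg3. In these 5 genes the 95% intervals (t distribution with the 7.33 degrees of freedom of the edgeR fit) reached from -0.39 to 0.33 at their widest. For the sparse genes the precision was lower, with 95% intervals of -0.71 to 0.38 around -0.17 for Gm10250 and of -0.42 to 0.68 around 0.13 for 9530036M11Rik. For all of the 7 genes but Creg2 the interval includes a difference between the control genotypes as large in size as that between mutant and WT. For each gene the libraries of both control genotypes overlapped. Of all 13200 genes tested, only 389 were apart as higher and 358 as lower in Isl1Cre/+, so nothing is read from this either.

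Levels of different genes can be compared only per length. Per kilobase of annotated exon, the WT means were 10.3 cpm for Mrps28, 8.53 for Gm10250, 6.77 for Creg2, 4.45 for Plcd1, 1.92 for Bhlhe41, 1.35 for 9530036M11Rik and 0.558 for Adgrg3, and the order was the same in Isl1Cre/+. In the mutant, Plcd1 (5.59 ± 0.436), Gm10250 (5.56 ± 0.111) and Creg2 (5.38 ± 0.589, SD, n = 3) were level, and the order of the others was kept. Over all 9 libraries the ranges of Mrps28 (8.96 to 12.8 cpm per kilobase), Gm10250 (5.46 to 11.4), Creg2 (5.0 to 7.56) and Plcd1 (3.79 to 5.97) each overlapped the next, as did those of Bhlhe41 (1.55 to 2.67) and 9530036M11Rik (0.923 to 1.82). Adgrg3 (0.424 to 0.589) was under all others.

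Relatives of the selected genes were compared in 6 lists with 102 tested genes. Between mutant and WT none of the 102 passed the criterion, against 0.318% of all genes, and none had an unadjusted p under 0.05 in edgeR, DESeq2 or limma voom. Between mutant and Isl1Cre/+, 2 passed, 1 in each direction, against 1.67% of all genes, and between Isl1Cre/+ and WT 1 passed, against 1.4%. These counts are near the background and show nothing particular to the relatives. No adjusted p was under 0.05. Over all genes tested the median log2 fold change was -0.0094 against WT and 0.00029 against Isl1Cre/+.

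For Plcd1, the list held 11 tested phosphoinositide phospholipases C, with a median log2 fold change of -0.00053 against WT and -0.0019 against Isl1Cre/+. The most abundant, Plcb3, an isoform activated by G proteins, was at 264 ± 39.7 cpm in WT, 240 ± 11.5 in Isl1Cre/+ and 239 ± 26 in the mutant. Plcd1 was selected for its difference, and no relative reached its log2 fold change. The list ranged from -0.14 to 0.092 against WT and from -0.13 to 0.24 against Isl1Cre/+. For Mrps28, 31 further proteins of the small mitochondrial ribosomal subunit ranged from -0.24 to 0.12 against WT (median -0.024) and from -0.11 to 0.21 against Isl1Cre/+ (median 0.051). Dap3, the most abundant of them and a GTP-binding protein of the same subunit, was at 66.8 ± 0.261 cpm in WT and 69.7 ± 4.1 in the mutant. Mrps28, which was selected for its difference, was outside the range of the subunit's other genes in both comparisons.

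The 21 tested adhesion G protein-coupled receptors other than Adgrg3 had medians of 0.00037 against WT and -0.097 against Isl1Cre/+. In the latter comparison 17 of 21 values were negative. Adgrg6, a receptor that Schwann cells need for myelination, was lower in the mutant than in Isl1Cre/+ (80.3 ± 4.89 against 99.1 ± 9.78 cpm, log2 fold change -0.30, SE 0.0863, unadjusted p = 0.00896, adjusted p = 0.9997, edgeR). Adgra1 was higher (16.6 ± 2.0 against 13.2 ± 0.869 cpm, 0.33, SE 0.111, edgeR adjusted p = 0.9997), and it was the 1 gene of the lists called between Isl1Cre/+ and WT (-0.31, SE 0.0859). Against WT, where Adgrg3 was at -0.32, Adgrg6 was at 0.034 and Adgra1 at 0.017. Whether these genes differ between the comparisons was not tested.

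Among 20 other genes of the circadian clock, the medians were 0.026 against WT and -0.017 against Isl1Cre/+, and none was called in any comparison. Csnk1d, the kinase with the highest level, was at 170 ± 12.5 cpm in WT, 179 ± 4.29 in Isl1Cre/+ and 168 ± 4.2 in the mutant. Bhlhe40, the closest relative of Bhlhe41 in the transcript set (75.1% identical over 229 bases, shown for that reason), was at 12.3, 31.7 and 11.1 cpm in mutant libraries, compared with 14.6, 8.42 and 10.1 in WT libraries and 11.8, 14.2 and 10.7 in Isl1Cre/+ libraries. Its mutant mean rested on library 2 alone, and the log2 fold change against WT of 0.74 (SE 0.420, unadjusted p = 0.121, edgeR) did not pass. The CREG family has 1 other gene, Creg1, which was at 22.2 ± 2.31 cpm in WT and 24.1 ± 6.74 in the mutant (0.12, SE 0.194). Its highest value, 31.8 cpm, was again in mutant library 2. For Gm10250 the 18 nuclear genes of ATP synthase, Atp5h among them, had medians of 0.025 and 0.10. Atp5b, the catalytic beta subunit and the most abundant, was at 1047 ± 68.8 cpm in WT, 1032 ± 17.2 in Isl1Cre/+ and 1065 ± 24.9 in the mutant.

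**Figure D4:**
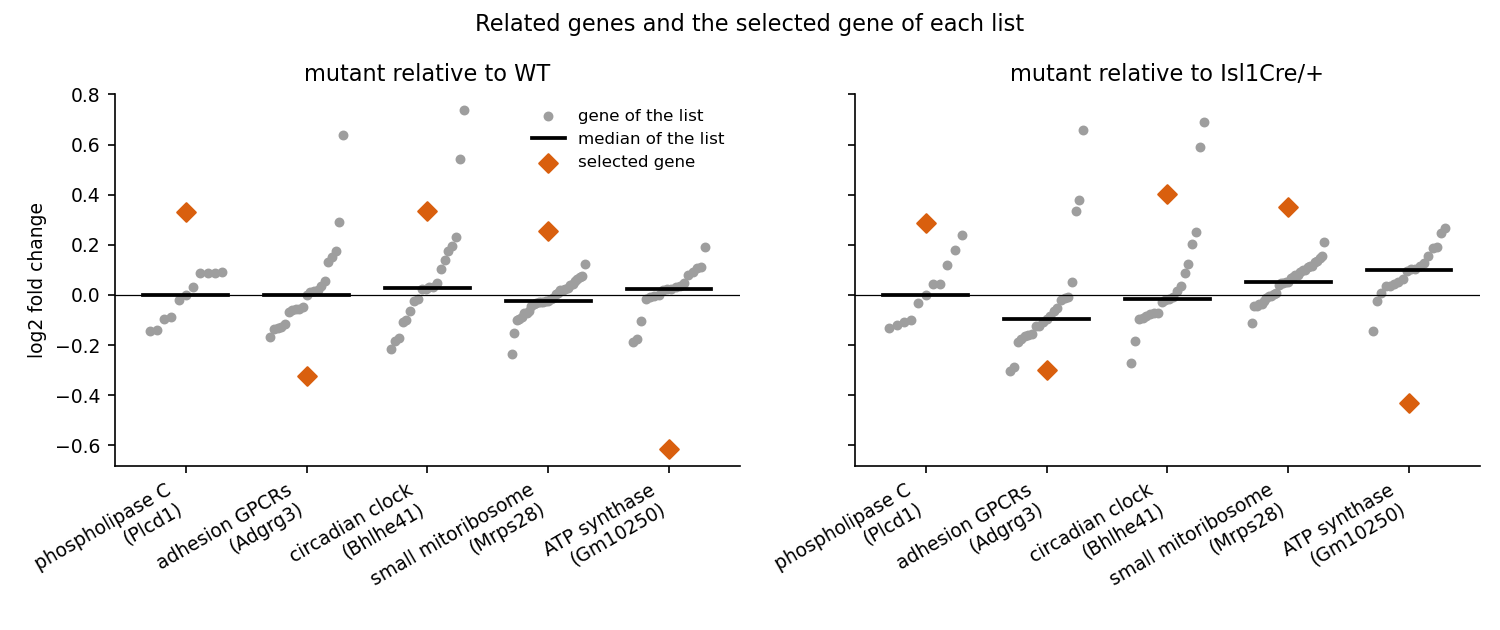
Log2 fold changes of the tested genes of 5 related lists (grey points, sorted within each list), the median of each list (black line) and the selected gene (diamond), for the mutant relative to WT and to Isl1Cre/+. The list medians lie between -0.024 and 0.026 against WT and between -0.097 and 0.10 against Isl1Cre/+. In both comparisons Plcd1 and Mrps28 lie above and Gm10250 below all genes of their lists, and all of these were selected for their difference.

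The genes next to these loci were also examined. Of 13 tested neighbours within 250000 bases, none passed the criterion in any comparison in edgeR, DESeq2 or limma voom. With 0.318%, 1.67% and 1.4% of all genes called, so few genes would be expected to hold none, and nothing is read from this. At an unadjusted p under 0.05 each tool found 1, and in edgeR this was Adgrg1 between Isl1Cre/+ and WT (log2 fold change 0.21), with none in the mutant comparisons. The annotated end of Vill, on the plus strand, lies 2 bases from that of Plcd1, and Vill was at log2 fold changes of 0.00015 against WT and 0.41 against Isl1Cre/+. Adgrg1, 3475 bases from Adgrg3 and a receptor of the same family, was at 0.021 and -0.18. Tpd52, 1675 bases from Mrps28, was at 0.027 and 0.058, and Rpl37, 1514 bases from Gm10250, at -0.066 and 0.13. The values of the other neighbours in the mutant comparisons lay between -0.17 and 0.14.

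Upstream sequence was available here for 7 transcription starts of Creg2, Plcd1, Bhlhe41, Adgrg3 and 9530036M11Rik (RefSeq, GRCm38.p6). The 250 bases before each start were searched on both strands for TGACAG, the core site of MEIS proteins, for TGATTGAC, a site of PBX and MEIS together, and for CACGTG, the E-box bound by Bhlhe41 and by clock activators. The MEIS site and the joint site can overlap by 4 letters. TGACAG was found before 3 of the 7 starts, 1 of Plcd1 and both of 9530036M11Rik, and in 15.9% of all 32851 promoters. CACGTG was found before Bhlhe41 alone, and in 6.02% of all promoters, while TGATTGAC was before none of the 7 and in 0.691% of all. One match for each gene is shown, leaving out that of the second 9530036M11Rik start. They carry the letters known to be bound by the factor mutated here or by the Bhlhe41 protein itself, and are printed for that reason, with the match in capitals and each sequence on the strand of its gene. They are at chr9:119093503-119093752 (Plcd1, 221 bases before the start), chr6:54150940-54151189 (9530036M11Rik, 137 bases before, on the other strand) and chr6:145865559-145865670 (Bhlhe41, 153 bases before, cut at the annotated transcript).
Plcd1: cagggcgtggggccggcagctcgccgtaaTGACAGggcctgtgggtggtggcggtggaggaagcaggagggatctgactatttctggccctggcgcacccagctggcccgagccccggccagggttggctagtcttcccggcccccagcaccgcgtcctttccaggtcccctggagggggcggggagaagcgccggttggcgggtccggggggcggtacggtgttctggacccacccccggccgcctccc
9530036M11Rik: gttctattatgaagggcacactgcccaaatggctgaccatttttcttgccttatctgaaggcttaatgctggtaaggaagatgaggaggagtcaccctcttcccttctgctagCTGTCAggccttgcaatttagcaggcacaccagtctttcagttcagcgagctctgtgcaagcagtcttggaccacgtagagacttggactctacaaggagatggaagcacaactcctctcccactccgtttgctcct
Bhlhe41: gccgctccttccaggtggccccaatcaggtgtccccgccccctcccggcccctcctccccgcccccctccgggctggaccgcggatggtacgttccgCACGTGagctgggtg

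These matches are a description of the sequence, and binding was not measured. Plcd1 was higher and 9530036M11Rik lower in the mutant, so the genes with a TGACAG match had no common direction.

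For each gene, the tested gene with the most similar course over the 9 libraries was found by the root mean square difference of centred log2 cpm, among genes at least as variable. Creg2 was nearest to Fam163a (0.091) and Adgrg3 to Myo16 (0.083). Plcd1 was nearest to Tspo (0.10), an outer mitochondrial membrane protein, and Mrps28 to Bok (0.099), a BCL2 family protein. Bhlhe41 had Tmem223 (0.14) as its nearest gene, Gm10250 had Tchh (0.19) and 9530036M11Rik had Tuba8 (0.15). For comparison, the standard deviation of the genes themselves over the libraries was 0.17 to 0.35.

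Marker genes of the cell types that a dissected ganglion can hold were summed for each library. In none of 11 lists did the summed level put all mutant libraries on one side of all controls. The 12 neuronal markers summed to 17136 to 22051 cpm in the mutant, 17805 to 28230 in WT and 19150 to 19980 in Isl1Cre/+. The 6 erythroid markers summed to 1210, 3966 and 2210 cpm in mutant libraries, above the 343 to 981 of Isl1Cre/+ but overlapping the 896 to 2135 of WT. Skeletal muscle (8 genes) ranged from 144 to 2237 cpm in the mutant, 130 to 961 in WT and 68.1 to 174 in Isl1Cre/+, and macrophages (9 genes) from 66.3 to 161, 85.6 to 103 and 70.1 to 96.1. All 6 erythroid and all 8 muscle markers passed the criterion as higher in the mutant than in Isl1Cre/+ and as lower in Isl1Cre/+ than in WT. The 3 tested granulocyte markers (median log2 fold change 1.67) and 2 of 4 tested cartilage markers were also called higher in the mutant than in Isl1Cre/+. Of 7 endothelial markers, 1 was called lower in the mutant than in Isl1Cre/+ and 3 were called higher in Isl1Cre/+ than in WT. Of the neuronal markers, Isl1, the gene that carries the Cre allele, was called lower than in WT in the mutant and in Isl1Cre/+, and no other was called. In the erythroid, muscle, macrophage and fibroblast lists mutant library 2 was the highest of the 9 libraries, and it also had the highest Plcd1 and Bhlhe41 and the lowest Creg2 and Adgrg3 values in cpm. The part of these marker levels in the 7 results was not tested. Without mutant library 2, the log2 fold changes against WT and Isl1Cre/+ were 0.30 and 0.24 for Plcd1, 0.28 and 0.33 for Bhlhe41, -0.26 and -0.22 for Creg2 and -0.27 and -0.26 for Adgrg3, all of them nearer to 0 than with it.

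Adgrg3 is known from granulocytes, and the 8 granulocyte markers summed to 6.65 to 20.1 cpm in the mutant, 3.04 to 21.1 in WT and 1.38 to 6.04 in Isl1Cre/+. The mutant libraries were all above the Isl1Cre/+ libraries in this sum and overlapped WT, and 3 of these markers had enough counts to be tested. The part of granulocyte content in the Adgrg3 values was not tested. Ly6g, a defining marker of neutrophils, had at most 3 counts in any library. No marker of any list was at 0 in all libraries.

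Under 12 alternative fits for each comparison, which changed the normalisation, the filter, the test or the libraries used, each of the 7 genes kept its sign in both mutant comparisons. The sign was part of the selection, so this is no measure of stability. The widest range was that of Gm10250 against WT, from -0.79 to -0.35, and the narrowest that of 9530036M11Rik against WT, from -0.53 to -0.47.

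**Figure D5:**
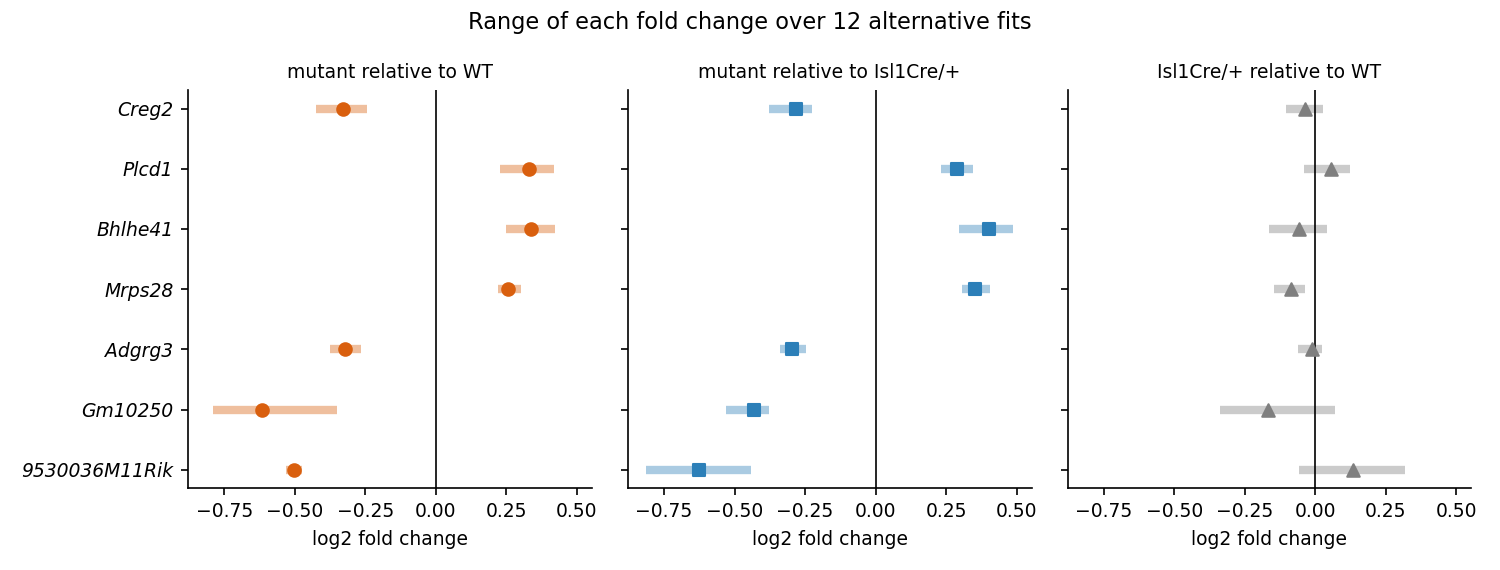
Log2 fold change of each gene as reported (symbols) and the range over 12 alternative fits (bars), among them each library left out in turn. The bars stay on one side of 0 for all 7 genes in both mutant comparisons, and cross 0 for all but Mrps28 between Isl1Cre/+ and WT.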

How the data were processed

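Reads were from poly(A)-selected RNA, with unique molecular identifiers. The authors made the deposited counts by alignment of single-end reads of 84 bases to mm10 with STAR 2.7.10, removal of PCR duplicates by these identifiers and counting of uniquely mapped reads per gene with HTSeq 0.6. The strand setting and annotation release of the counting are not given in the sources used here. The same table holds the fold changes and p-values of the authors' own limma comparisons, which were not used.

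Genotypes were taken from the labels. Identifiers were matched to GENCODE M21 (GRCm38), with 54855 of 55247 identical. Genes were tested when some library had 100 counts or more (13200 genes). TMM normalisation and the fits used edgeR 4.0.16 (R 4.3.3), with a separate fit for each genotype pair (two-sided quasi-likelihood test, Benjamini-Hochberg adjustment over all genes). Genes past the study's thresholds (1.2-fold, unadjusted p under 0.05) were called. The procedure was tested on simulated counts. Levels are cpm on TMM-scaled library sizes, and log2 cpm used a prior count of 0.5. Within genotypes, counts of library pairs differed by 12.6 to 129 times sampling noise (chi-square per degree of freedom), so no pair agreed within sampling noise. Intervals of shares cover counting error only.

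The 7 genes, the related lists and the marker lists were chosen with earlier results of these data known. Named genes are the 7 genes, in each related list the genes called or else the most abundant one, the nearest tested neighbour on each side within 250000 bases, the gene of most similar course, Meis2 and Isl1, while Bhlhe40 and the sequence copies of Gm10250 were added for their similarity. Alternatives were DESeq2 1.42.0 size factors and Wald test, limma 3.58.1 voom, no count filter, all 3 genotypes in 1 fit, the replicate number as a block and each library left out. Counts of separated genes without WT library 1, mutant library 2 or both were added after seeing the data and are not given, since leaving out a library cannot end a complete separation.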

Additional observations from a re-analysis of the deposited data

How the results depend on the processing

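In the alternatives run, the fold change of each of the 7 genes kept its direction in both mutant comparisons, which the selection favours, while the number of them past the criterion fell from 5 to between 0 and 3 against WT and from 6 to between 2 and 4 against Isl1Cre/+ with a library left out, and to 1 and 4 with the replicate block. The log2 fold change of Gm10250 against WT was the 1 value of these that moved by over 1.5 times, from -0.62 to -0.35 without WT library 1. For mutant against WT, mutant against Isl1Cre/+ and Isl1Cre/+ against WT, 42, 221 and 185 of all genes were called, and 408, 1028 and 845 with no filter on low counts, which also tests sparse genes (for mutant against WT, 8 higher and 34 lower became 210 higher and 198 lower, and also 80 and 40 without mutant library 1 and 60 and 72 without WT library 1). With each library left out the ranges were 40 to 132, 167 to 407 and 102 to 340. The libraries that moved these counts by over 1.5 times were, for mutant against WT, WT library 1 (132), WT library 3 (67) and mutant libraries 1 (120) and 2 (74), for mutant against Isl1Cre/+ mutant library 1 (407), and for Isl1Cre/+ against WT, WT library 1 (340) and Isl1Cre/+ library 3 (102). Among the related genes, 0, 2 and 1 were called, 2, 4 and 3 with no filter, and 0 to 1, 1 to 6 and 0 to 3 with a library left out. For Isl1Cre/+ against WT the related genes called were 2 with the DESeq2 Wald test, with all 3 genotypes in 1 fit and with the replicate block, and the causes were not tested. Deviations of libraries of the same number correlated from -0.60 to 0.43, with no common sign. With 3 libraries per genotype this cannot decide whether the numbers pair libraries. The replicate block gave 31, 177 and 236 called genes. Depth limits Adgrg3, Gm10250 and 9530036M11Rik, whose mean counts of 98.3, 95.3 and 69.4 give a counting error of 10.1%, 10.2% and 12% per library.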
